A study of Mus musculus with 34 samples.

Results

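Among PU.1 binding sites of unstimulated macrophages, 20012 of 41573 overlapped no AP-1 peak. These AP-1-free PU.1 peaks were chosen by their position alone: a peak of the PU.1 list from Veh-treated C57BL/6 macrophages was kept when no peak in any of 12 AP-1 lists from the same strain shared 1 bp or more with it. They made up 48.1% of the PU.1 list (95% Wilson interval 47.7% to 48.6%). The other 21561 PU.1 peaks, which overlapped at least 1 AP-1 peak, served as the comparison.

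The cells were TGEMs, macrophages that enter the mouse peritoneum after thioglycollate is injected. They came from male wild-type C57Bl/6EiJ mice as the labels give them (C57BL/6 below), from male Balb/cJ mice (BALB/cJ below) or from male mice labelled PPARgKO, with C57Bl6 in their sample titles, and the sources used here do not say which promoter or Cre removed Pparg. C57BL/6 and BALB/cJ mice were 8 weeks old. Cells were collected 3 days after injection and received PBS (Veh) or 100 ng/mL of KLA for 1 h. KLA is the lipid core of lipopolysaccharide and activates macrophages through TLR4. ChIP-seq peak lists of C57BL/6 covered ATF3, Jun, JunD, Fos, FosL2 (labelled Fra2) and JunB in Veh and KLA, PU.1 and CEBPa in Veh and KLA, and PPARg in Veh. The BALB/cJ lists covered the same AP-1 monomers except FosL2, and the PPARgKO lists covered ATF3, Jun and JunD in Veh. Replicates had been combined into 1 list per condition, so peaks are the unit of every test below and no p-value measures variation between mice.

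PU.1, encoded by Spi1, is an ETS-family factor that macrophages need for their development, and it binds a GGAA core flanked by purines, often opening chromatin at enhancers. AP-1 is a family of dimers of Jun, Fos and ATF proteins that recognize the TRE (TGACTCA) or the CRE (TGACGTCA) and commonly occupy macrophage enhancers next to PU.1. CEBPa is another factor of myeloid identity, and PPARg is a lipid-sensing nuclear receptor expressed in these cells.

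The sequences of 7 AP-1-free PU.1 peaks are given first, to show the PU.1 core in its setting. They were picked for holding a core, so their motif content was fixed by that choice and the shares of each set are given further below. Each is the central 150 bases of the peak on the plus strand of mm10, read from GRCm38. Capitals mark the PU.1 core (AGGAAGT or its reverse complement ACTTCCT), and no window holds a TRE. They are the highest of their class by PU.1 count, or for Jaml by number of AP-1 lists, among peaks with a PU.1 core in the central 100 bp and no exon nearby. Strap, H2afy and Gm41271 stand for the highest peaks of all, Tmem206 for promoters and Gm12434 for CEBPa overlap. Gm45805 stands for absence from the PU.1 list in KLA, and Jaml for AP-1 in the other mice. AP-1 lists of the other mice also overlapped Tmem206 (4 lists), Gm12434 (1) and Gm41271 (1).

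Strap (chr6:137696901-137697050): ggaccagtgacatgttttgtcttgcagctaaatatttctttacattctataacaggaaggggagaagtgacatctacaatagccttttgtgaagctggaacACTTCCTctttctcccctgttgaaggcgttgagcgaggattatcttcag
H2afy (chr13:56014117-56014266): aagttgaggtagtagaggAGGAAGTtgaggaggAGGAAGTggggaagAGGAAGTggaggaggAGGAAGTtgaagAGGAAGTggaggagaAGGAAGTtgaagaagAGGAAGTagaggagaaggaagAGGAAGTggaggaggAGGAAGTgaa
Gm41271 (chr15:11716299-11716448): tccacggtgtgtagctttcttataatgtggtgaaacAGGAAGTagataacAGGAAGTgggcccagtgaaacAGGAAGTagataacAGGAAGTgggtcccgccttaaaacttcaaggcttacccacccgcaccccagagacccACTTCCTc
Tmem206 (chr1:191325707-191325856): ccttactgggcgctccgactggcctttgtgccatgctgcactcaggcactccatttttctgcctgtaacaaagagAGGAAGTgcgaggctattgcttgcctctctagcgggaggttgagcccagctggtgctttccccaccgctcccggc
Gm12434 (chr4:47833044-47833193): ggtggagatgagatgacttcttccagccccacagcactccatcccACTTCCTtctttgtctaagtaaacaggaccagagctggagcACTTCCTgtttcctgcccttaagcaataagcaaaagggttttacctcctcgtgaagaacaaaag
Gm45805 (chr8:126683692-126683841): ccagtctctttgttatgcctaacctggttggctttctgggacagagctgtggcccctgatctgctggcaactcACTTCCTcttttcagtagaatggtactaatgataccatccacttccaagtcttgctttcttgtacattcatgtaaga
Jaml (chr9:45086391-45086540): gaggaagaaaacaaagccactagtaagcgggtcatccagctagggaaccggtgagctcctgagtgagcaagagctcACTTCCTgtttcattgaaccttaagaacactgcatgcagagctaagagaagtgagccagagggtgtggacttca

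Each window is named by the gene with the nearest TSS. The H2afy window lies 121338 bp from that TSS, in an intron of a gene that was not identified here. It holds 9 PU.1 cores in a tandem array and is 92.7% repeat-masked, and the Gm41271 window holds 5. For contrast, 20 PU.1 peaks overlapped all 12 AP-1 lists, and 8 of them had a TRE within the central 100 bp. The 3 highest of these that lay away from exons are shown in the same way, picked for their TRE, with the TRE (TGACTCA or TGAGTCA) also in capitals. Each holds 1 TRE, and 2 of the 3 hold a PU.1 core.

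AC132148.1 (chr19:10279816-10279965): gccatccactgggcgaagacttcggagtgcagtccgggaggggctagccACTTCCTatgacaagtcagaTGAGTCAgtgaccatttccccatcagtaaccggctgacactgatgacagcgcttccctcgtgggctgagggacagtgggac
Fbxo32 (chr15:58266560-58266709): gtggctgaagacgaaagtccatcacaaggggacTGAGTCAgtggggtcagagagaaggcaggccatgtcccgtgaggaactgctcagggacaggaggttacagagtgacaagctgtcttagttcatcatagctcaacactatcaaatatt
4930471E19Rik (chr10:120628209-120628358): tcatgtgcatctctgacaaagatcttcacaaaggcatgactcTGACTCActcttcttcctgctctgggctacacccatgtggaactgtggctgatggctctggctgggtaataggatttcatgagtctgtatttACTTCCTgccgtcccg

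The deposited count of a peak, a whole number not scaled to library size, ranks the peaks within a list. AP-1-free peaks had a median PU.1 count of 220 (middle 50% between 160 and 330, lowest 110, highest 1370). AP-1-overlapping peaks had a median of 312 (middle 50% between 195 and 528, lowest 110, highest 1563). The ranges of both sets overlapped almost completely, and the sets differed in their shares of strong peaks. The list was divided by count into 10 bins of equal size. In the weakest bin, with counts from 110 to 138, 62.9% of peaks were AP-1-free. The share fell through every bin to 16.0% in the strongest, with counts from 648 to 1563, where 666 of 4158 peaks were AP-1-free. The scaled IDR score was at its ceiling of 1000 for 53.6% of AP-1-free and 74.8% of AP-1-overlapping peaks. Peak widths hardly differed, with medians of 209 and 210 bp. Because the sets differed in PU.1 count, the overlap, promoter and motif comparisons between them are also given within bins of that count below. The rule can also be met by a peak whose AP-1 signal stayed under the IDR limit. The bins cannot address this, since PU.1 count does not measure AP-1 signal. The 6-mers and some comparisons among AP-1-free peaks are given without that adjustment.

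**Figure D1:**
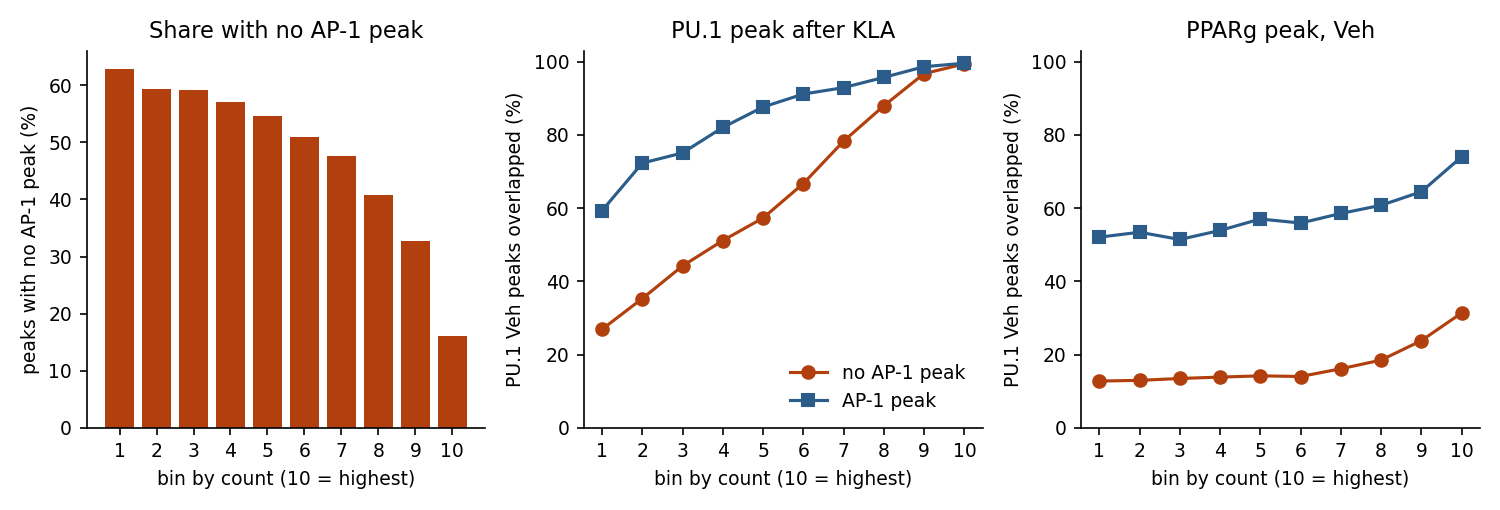
PU.1 Veh peaks of C57BL/6 TGEMs were divided into 10 bins of equal size by their count. The left panel gives the percentage with no AP-1 peak, which falls from 62.9% to 16.0%, and the others give the percentage that also held a PU.1 peak after KLA or a PPARg peak in Veh, for peaks with no AP-1 peak (circles) and with one (squares). The sets meet in the strongest bin for PU.1 after KLA, at 99.4% and 99.6%, and stay apart at every count for PPARg.

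Values near the limit of the rule are given as description. Of the AP-1-free peaks, 408 (2.04%) lay 1 to 50 bp from the nearest AP-1 peak and had a median PU.1 count of 213.5. Just across the limit, 414 PU.1 peaks shared 1 to 50 bp with an AP-1 peak, and their median count was 210.5. Most members were farther away: 8223 (41.1%) lay over 1000 and up to 10000 bp and 7299 (36.5%) more than 10000 bp from any AP-1 peak, and the median gap was 5173 bp. Of the AP-1-overlapping peaks, 3897 (18.1%) were in 1 AP-1 list only and 6980 (32.4%) in 7 to 12 lists.

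PU.1 peaks in KLA were rarer at AP-1-free sites. After 1 h of KLA, 11615 of 20012 AP-1-free peaks (58.0%, interval 57.4% to 58.7%) overlapped a PU.1 peak, against 19000 of 21561 AP-1-overlapping peaks (88.1%, 87.7% to 88.5%) and 73.6% of the whole PU.1 list. The odds ratio was 0.186 (95% interval 0.177 to 0.196, two-sided Fisher's exact test, adjusted p = 1e-300, the smallest value written). Within the bins of PU.1 count (Mantel-Haenszel) it was 0.235 (0.222 to 0.248). The PU.1 lists held 41573 and 40645 peaks, but their counts summed to 13809143 in Veh and 3342808 in KLA, and the part of this difference in the loss of weak peaks was not tested. The gap between the sets was larger among weak peaks, with 26.9% against 59.3% in the weakest bin. It narrowed to 96.8% against 98.6% in bin 9.

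The AP-1-free peaks without a KLA partner had a median Veh count of 174 and a highest count of 792, whereas those with a partner had a median of 279. Ranks by count within each list are given as a description only, since the lists differ in content and a set can rank lower in one of them because other peaks rank higher. The median percentile of AP-1-free peaks with a KLA partner was 54.5 in the Veh list and 42.9 in the KLA list. That of AP-1-overlapping peaks with a partner was 65.8 and 71.0. The converse set was also counted. Of 40645 PU.1 peaks in KLA, 15367 (37.8%) overlapped no AP-1 list, and of the 10045 that had no PU.1 peak in Veh, 3818 (38.0%) overlapped none.

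The highest AP-1-free peaks, here and in the classes named below, were taken outside chromosome 18. The peak with the highest count lay 38102 bp upstream of Strap, a gene for an adaptor of receptor kinases (chr6:137696850-137697103), with a PU.1 count of 1370, rank 13 of the whole list, and its KLA partner was at percentile 94.3. It held PPARg and lay 38 bp from an AP-1 peak. The next, nearest the ribosome biogenesis gene Wdr12 (chr1:60070787-60070997), had a count of 1309 and lay 27256 bp from any AP-1 peak. The peak shown above for H2afy, the gene of a macroH2A histone, lay 121338 bp from the TSS of H2afy, the nearest one. It had a count of 1205 and a KLA percentile of 84.0, the lowest among the 10 highest peaks. All 10 had a PU.1 peak in KLA, 4 had PPARg and none had CEBPa. Some overlapped AP-1 lists of the other mice. The peak nearest Marf1 overlapped 2 of these lists, and those nearest Plcl1, Gm27168, Gm41271, Ptma and 2410152P15Rik overlapped 1 each.

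Absence from the KLA list was seen at weaker peaks. The 3 highest AP-1-free peaks without a KLA partner had counts of 792, 733 and 699. The first (chr8:126683664-126683871), between genes and nearest Gm45805, lay 34 bp from an AP-1 peak. The second lay 522933 bp upstream of Tyrp1, a gene of pigment synthesis, and overlapped CEBPa in Veh. The weakest was intronic, 3731 bp inside 1700030J22Rik.

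CEBPa and PPARg were also less common at AP-1-free PU.1 sites. CEBPa in Veh overlapped 648 AP-1-free peaks (3.24%, interval 3.00% to 3.49%) and 6238 AP-1-overlapping peaks (28.9%, 28.3% to 29.5%), against 16.6% of all PU.1 peaks. The odds ratio was 0.0822 (0.0756 to 0.0894, Fisher's exact test, adjusted p = 1e-300). CEBPa in KLA overlapped 340 AP-1-free peaks (1.70%) and 6491 others (30.1%), with an odds ratio of 0.0401 (0.0359 to 0.0448) and a share of 16.4% over the list. The share of AP-1-free peaks with CEBPa was lower in the KLA list than in the Veh list, while that of the other peaks was not, although the difference between treatments was not tested. Within bins by count the odds ratios were 0.0922 in Veh and 0.0428 in KLA.

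PPARg overlapped 3101 AP-1-free peaks (15.5%, 15.0% to 16.0%) and 12915 AP-1-overlapping peaks (59.9%, 59.2% to 60.5%), against 38.5% of the list. The odds ratio was 0.123 (0.117 to 0.129, exact adjusted p = 1e-300) and 0.141 (0.134 to 0.148) within bins. Altogether 16372 AP-1-free peaks (81.8%) had neither CEBPa in either treatment nor PPARg, compared with 6306 (29.2%) of the others. Both CEBPa and PPARg were found at 210 AP-1-free peaks (1.05%) and 5660 AP-1-overlapping peaks (26.3%). A total of 6391 AP-1-free peaks (31.9%) appeared in no other list of the series, with a median count of 173. A further 6549 (32.7%) appeared only in the 2 PU.1 lists, with a median count of 266. The rule itself keeps AP-1-free peaks out of the AP-1 lists it used, so both shares are partly fixed by selection. With those AP-1 lists set aside, the corresponding AP-1-overlapping peaks numbered 203 (0.94%) and 581 (2.7%).

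The AP-1-free peaks with PPARg differed from those without it. Of the former, 35.8% lay within 1000 bp of a TSS, against 13.2% of the latter (odds ratio 3.66, 3.36 to 3.99, Fisher's exact test, adjusted p = 2.84e-177). They more often held a GC box (GGGCGG, the site of Sp and KLF factors), at 20.6% against 6.49%, and less often a PU.1 core, at 35.5% against 48.2%. The nuclear receptor recognition unit AGGTCA was present in 14.4% and 11.2% (odds ratio 1.33, 1.19 to 1.48, exact adjusted p = 1.35e-06).

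The 3 highest AP-1-free peaks with CEBPa in Veh had PU.1 counts of 924, 904 and 890. They lay between genes nearest Gm12434, in an intron 11100 bp upstream of a Scp2 start, a gene for a sterol carrier protein, and in an intron near E030013I19Rik. Each had a PU.1 peak in KLA, at percentiles 91.6, 91.7 and 92.8, and none had PPARg.

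AP-1 lists from the other mice give a measurement of the same factors that the rule did not use. At least 1 BALB/cJ list overlapped 3984 AP-1-free peaks (19.9%, 19.4% to 20.5%) and 19389 AP-1-overlapping peaks (89.9%, 89.5% to 90.3%), against 56.2% of the PU.1 list. The odds ratio was 0.0278 (0.0263 to 0.0295, Fisher's exact test, adjusted p = 1e-300). At least 1 PPARgKO list overlapped 2630 (13.1%) and 15211 (70.5%), against 42.9% of the list, with an odds ratio of 0.0632 (0.0601 to 0.0664). Within bins by count the odds ratios were 0.0313 and 0.0726. The BALB/cJ share of AP-1-free peaks was 14.1% in the weakest bin and 38.1% in the strongest, against 86.9% and 94.8% of the others. All 11 lists of over 100 peaks gave an odds ratio below 0.12. JunD in BALB/cJ with Veh, a list of 28652 peaks, overlapped 10.0% of AP-1-free peaks, the highest share among these lists, and 63.15% of the others. Jun in PPARgKO, the shortest of these lists with 4290 peaks, overlapped 0.170% and 13.6%, the lowest share in both sets. Of all 41573 PU.1 peaks, JunD in BALB/cJ with Veh overlapped 15619 and Jun in PPARgKO 2969. For BALB/cJ in Veh, no Fos peak was listed and JunB had 9 peaks.

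**Figure D2:**
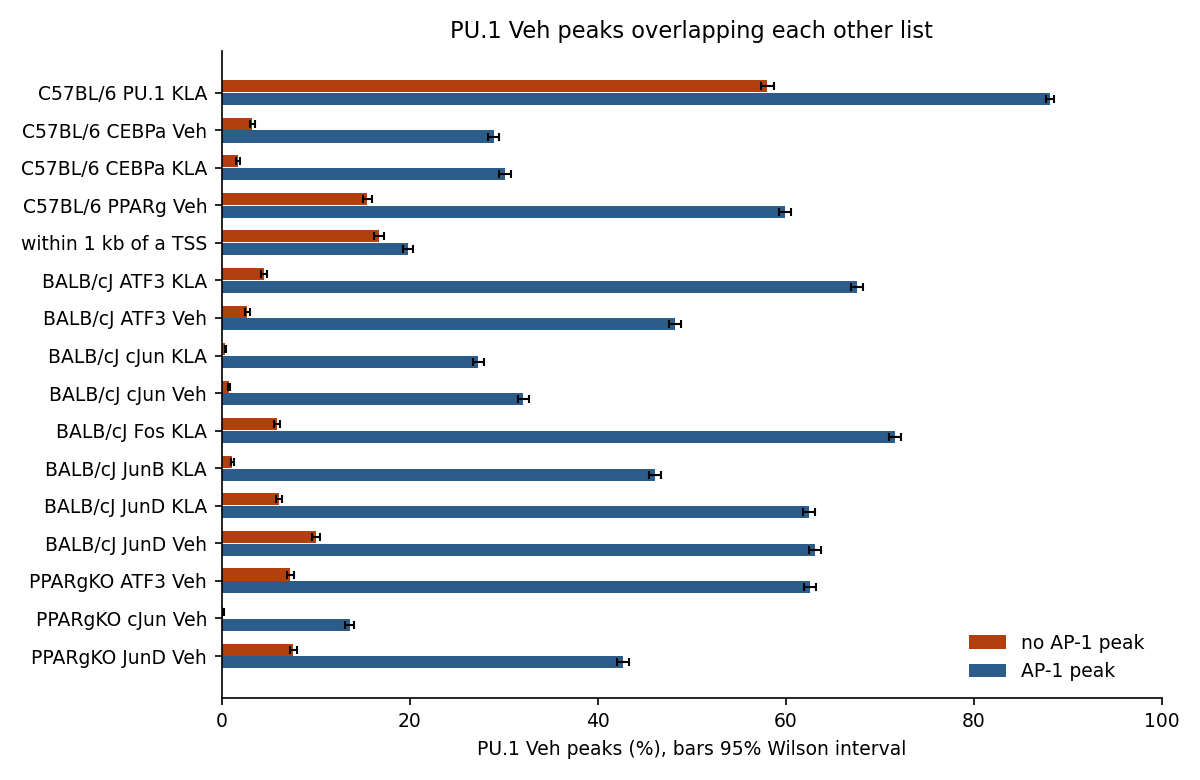
Percentage of PU.1 Veh peaks that overlapped each list or lay within 1 kb of a TSS, for peaks with no AP-1 peak in C57BL/6 (upper bar of each pair) and peaks with one (lower bar), with 95% Wilson intervals that cover counting error only. The upper bar is shorter in every pair, from 58.0% against 88.1% for PU.1 in KLA to 0.170% against 13.6% for Jun in PPARgKO.

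Most of the AP-1-free peaks stayed without AP-1 in all mice: 14537 of them (72.6%) overlapped none of the 13 other lists, and 3252 (16.3%) overlapped 1. None overlapped 9 or more, whereas AP-1-overlapping peaks were found in any number of lists from 0 to 12, with 5 peaks in 12 lists. The 5475 AP-1-free peaks with AP-1 in BALB/cJ or PPARgKO lay within 1000 bp of a TSS in 25.9% of cases, against 13.2% for the rest (odds ratio 2.29, 2.12 to 2.47, Fisher's exact test, adjusted p = 4.54e-94). A TRE was in 3.43% against 1.89% (1.84, 1.53 to 2.23, exact adjusted p = 8.94e-10) and a CRE in 0.439% against 0.0688% (6.40, 3.06 to 13.4, exact adjusted p = 2.95e-07). The CRE counts were 24 and 10 peaks. A GC box was more common than either site, in 15.0% against 6.29% (2.63, 2.38 to 2.91, exact adjusted p = 7.39e-77). The PU.1 core was less frequent, in 41.7% against 48.0%.

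The peaks with AP-1 in the most other lists had 8 of 13. One lay in an intron 2520 bp inside Jaml, which encodes an adhesion molecule of leukocytes (chr9:45086362-45086571). Its PU.1 count was 468, its KLA percentile was 39.5, and all of its 8 AP-1 lists were from BALB/cJ, although its distance to the nearest C57BL/6 AP-1 peak was 1468 bp. Another, intronic near Gm14225, also had 8 BALB/cJ lists, and the peak 150416 bp from Cenpc1 had 7 and PPARgKO ATF3. Sequence differences between the strains were not analysed here.

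Promoters were slightly less frequent among AP-1-free peaks. Of these, 3342 (16.7%, 16.2% to 17.2%) had their centre within 1000 bp of a TSS, against 4276 (19.8%, 19.3% to 20.4%) of AP-1-overlapping peaks and 18.3% of the list (odds ratio 0.81, 0.771 to 0.852, Fisher's exact test, adjusted p = 1.58e-16). Within bins by count the odds ratio was 0.723. The direction depended on which AP-1 peaks were counted: with the strongest 50% of each AP-1 list, the odds ratio was 1.34, with 19.6% against 15.4%. The difference lay close to the TSS. Within 100 bp were 5.94% of AP-1-free and 9.53% of AP-1-overlapping peaks, and over 100 and up to 1000 bp the shares were 10.8% and 10.3%. Median distances to a TSS were 10947 and 10319 bp.

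By annotation, 55.0% of AP-1-free peak centres were in introns, 36.7% between genes, 4.94% in UTRs, 2.19% in coding exons and 1.23% in exons of noncoding genes. The corresponding shares of AP-1-overlapping peaks were 52.6%, 38.2%, 6.33%, 1.38% and 1.54%. Within the AP-1-free set, promoter peaks overlapped a PU.1 peak in KLA more often than others, at 71.8% against 55.3% (odds ratio 2.07, 1.90 to 2.24, Fisher's exact test, adjusted p = 2.57e-72), and the odds ratio was 2.78 within bins.

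The 5 highest AP-1-free promoter peaks belonged to Gm27168, Fgd2, Catsperg1, Tmem206 and Gcc2, with PU.1 counts from 972 to 1163. Fgd2 encodes a Cdc42 exchange factor and had its peak 1 bp from the TSS (chr17:29360812-29361018), with a count of 1056. Tmem206 encodes a proton-activated chloride channel, Gcc2 a golgin of the trans-Golgi, and Catsperg1 a subunit of the sperm calcium channel. All 5 overlapped PPARg, and all had a PU.1 peak in KLA above percentile 97. Gcc2 and Tmem206 overlapped 5 and 4 AP-1 lists of the other mice, while Catsperg1 overlapped none.

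The X chromosome was singled out after its values were seen, so its shares are a description. Of 713 PU.1 peaks on X, 436 (61.2%) were AP-1-free, against 47.9% on autosomes, where single chromosomes ranged from 45.8% to 51.2%. The odds ratio of X against autosomes was 1.71, and 1.48 within bins by count. PU.1 peaks on X had a median count of 217, against 260 on autosomes. The X chromosome carried 1.72% of PU.1 peaks in Veh, 1.58% in KLA and from 0.432% to 1.61% of the peaks in the 12 AP-1 lists. All mice were male, with a single X chromosome, and its part in this difference was not tested.

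Motifs were searched on both strands in the central 200 bp. The PU.1 core was in 46.3% of AP-1-free peaks (45.6% to 46.9%), 36.6% of AP-1-overlapping peaks (36.0% to 37.3%) and 41.3% of the list, an odds ratio of 1.49 (1.43 to 1.55, Fisher's exact test, adjusted p = 5.59e-88). The longer site AGAGGAAGT was in 13.9% and 8.36% (1.77, 1.66 to 1.88, exact adjusted p = 1.69e-71). Within bins by count the odds ratios were 1.87 for the core and 2.65 for the longer site. This motif contains the core, and both contain the bare ETS letters GGAA, which were in 99.6% and 99.5% and did not pass the test (exact adjusted p = 0.0915), although within bins by count they did (odds ratio 1.38, adjusted p = 0.0335, Mantel-Haenszel test, not an exact one). The core was more frequent in AP-1-free peaks in every bin by count, rising from 37.8% to 66.7%, against 20.9% to 54.5%. More than 1 core was found in 6.07% and 4.13%, and a core within 25 bp of the centre in 39.4% and 28.1%.

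The TRE, the main AP-1 site, was in 2.31% of AP-1-free peaks (463), 15.3% of AP-1-overlapping peaks (3301) and 9.05% of the list (odds ratio 0.131, 0.119 to 0.145, exact adjusted p = 1e-300). The AP-1-free peaks showed no rise in TREs around the peak centre, where TREs of the other set clustered. The median distance from the centre to the nearest TRE within 250 bp was 134.5 bp in AP-1-free peaks and 57.5 bp in AP-1-overlapping peaks. The CRE was in 0.170% and 0.997% (0.169, 0.118 to 0.243), and 0.599% of the list. Among peaks of like count the odds ratios were 0.116 for the TRE and 0.14 for the CRE. With 1 mismatch allowed, the TRE was in 40.6% and 59.3%, an odds ratio of 0.47, and the CRE in 4.48% and 11.1%, an odds ratio of 0.375. Conversely, 84.7% of AP-1-overlapping peaks held no TRE in this window.

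**Figure D3:**
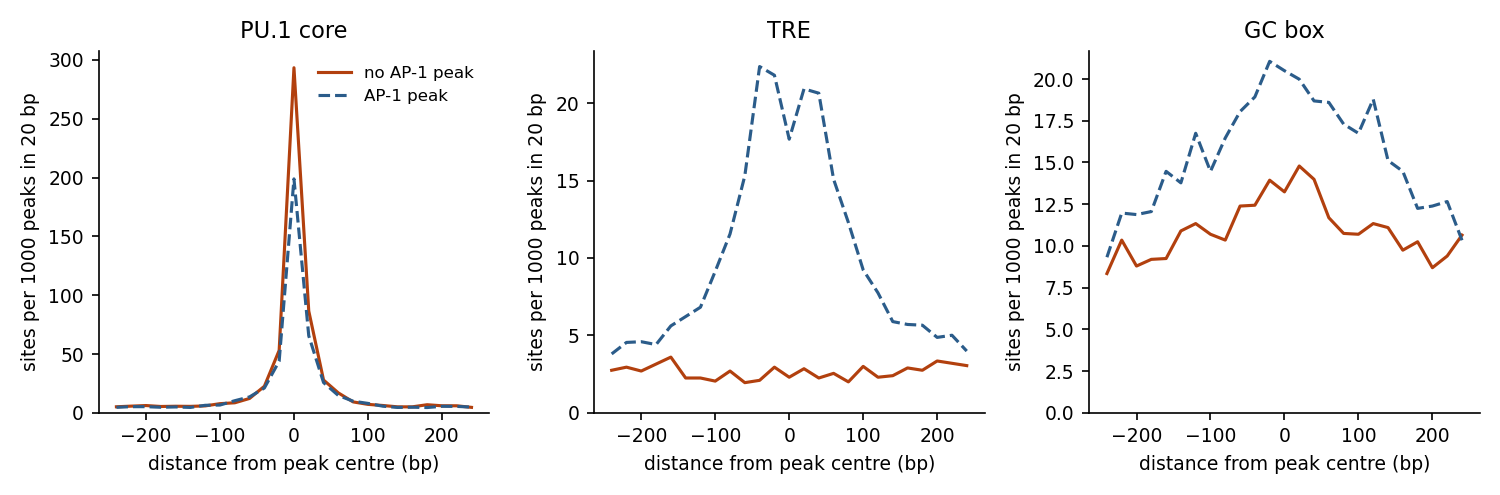
Number of motif sites per 1000 peaks in bins of 20 bp against distance from the peak centre, for PU.1 Veh peaks with no AP-1 peak (solid) and with one (dashed). PU.1 cores are denser at the centre of AP-1-free peaks, TREs form a central mound only in the other set, and GC boxes are fewer in AP-1-free peaks.

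Sites of other factors were mostly rarer in AP-1-free peaks. Of 20 motifs in all, 4 were more frequent, 13 were less frequent and 3 did not pass the threshold of 0.05 on the adjusted p. These 20 include the PU.1 sites, GGAA, the TRE and the CRE above, some of which contain others. They also include TGANTCA, the TRE with any middle base, in 3.86% and 19.0% (odds ratio 0.171, and 0.155 within bins by count). Within the same bins, 5 were more and 14 less frequent, the added ones being GGAA and CCAAT (odds ratio 0.933). A full CEBP site (TTGCNNAA, with AC, AT, GC or GT for the N letters) was in 1.55% of AP-1-free peaks, 3.79% of the others and 2.71% of the list (0.4, 0.35 to 0.456). The CEBP-ATF site TGATGCAA was in 0.42%, 1.48% and 0.967%. A Runx site (TGTGGTT) was in 5.27%, 6.66% and 5.99%, the E-box TCACGTG in 1.35%, 2.46% and 1.93%, and AGGTCA in 11.7%, 14.2% and 13.0%. The NF-kB motif was in 0.160%, 0.478% and 0.325%. The KLF site CCACACCC was in 1.96%, 2.31% and 2.14%, the NFY box CCAAT in 21.8%, 22.4% and 22.1%, and the MEF2 motif in 0.05%, 0.135% and 0.0938%. The KLF and MEF2 differences did not pass under several alternatives. Odds ratios within bins by count were 0.383 for CEBP, 0.263 for CEBP-ATF, 0.773 for Runx, 0.491 for the E-box and 0.789 for AGGTCA. They were 0.333 for NF-kB, 0.785 for KLF, 0.319 for MEF2, 0.628 for CCGGAAGT and 0.931 for the ISRE, which did not pass. GC boxes were in 8.68%, 12.4% and 10.6% (0.673, 0.632 to 0.718, and 0.588 within bins by count), and the ETS promoter site CCGGAAGT in 1.63%, 2.18% and 1.92%. Like the promoter share, the last 2 turned with the strongest 50% of each AP-1 list, to odds ratios of 1.12 and 1.51, and CCGGAAGT did not pass the test at 3 kb or more from a TSS (odds ratio 0.991).

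A CTCF motif, the site of the chromatin loop and insulator protein, was more frequent in AP-1-free peaks, in 2.79% against 1.48% and 2.11% of the list (1.91, 1.67 to 2.199, Fisher's exact test, adjusted p = 2.50e-20). The odds ratio was 1.73 within bins by count, and 1.13 with 1 mismatch allowed, where the motif was in 19.1% against 17.3%. The PU.1-IRF composite motif, which PU.1 occupies with IRF4 or IRF8, was in 8.95%, 8.05% and 8.48% (1.12, 1.05 to 1.20, exact adjusted p = 0.0014). Within bins by count the odds ratio was 1.40. Without the bins, the difference did not pass with peak centres within 100 bp, with 50% reciprocal overlap, or in the strongest 50% of PU.1 peaks, where odds ratios were 1.06, 1.06 and 1.09. The ISRE, an interferon response element, was in 3.72%, 4.10% and 3.92% and did not pass (exact adjusted p = 0.0507).

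**Figure D4:**
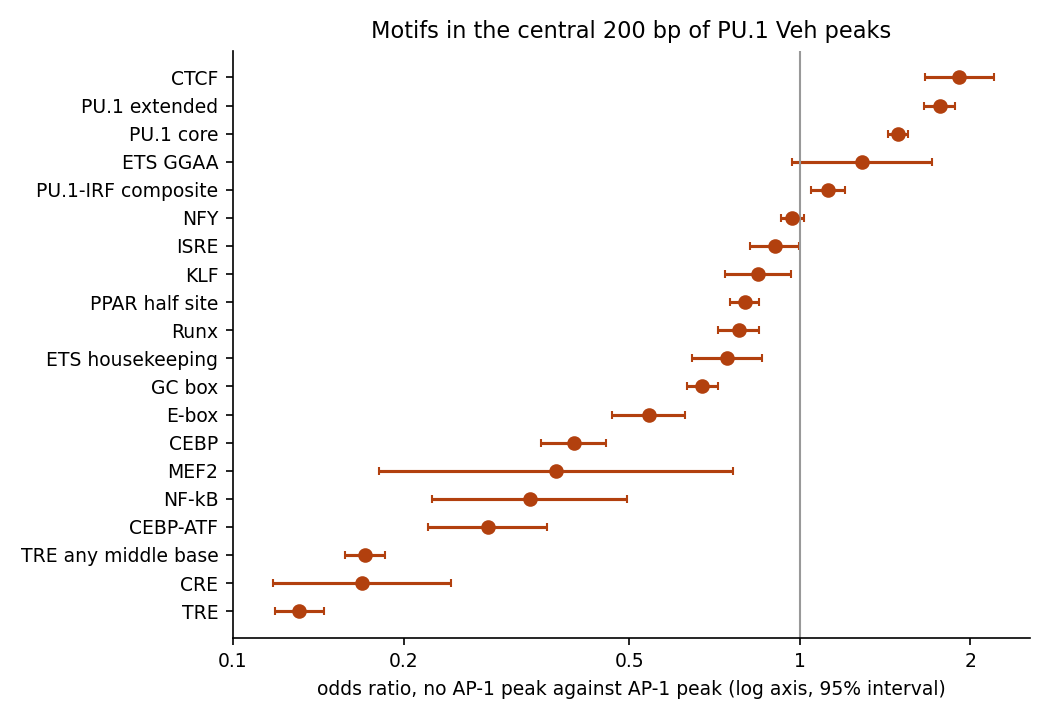
Odds ratio on a log axis, with 95% interval, of each of 20 motifs in the central 200 bp of PU.1 Veh peaks with no AP-1 peak against those with one. CTCF and PU.1 sites lie right of 1, and TRE and CRE sites lie farthest left.

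Over all 2080 6-mers, counted with their reverse complements, 452 (21.7%) were more frequent in AP-1-free peaks and 683 (32.8%) were less frequent, at an adjusted p under 0.05. Among those in at least 5% of either set, the 5 with the highest odds ratios were led by CACCTG, an E-box bound by E proteins and by Zeb and Snail repressors, in 8.25% against 5.41% (1.57, 1.45 to 1.70). CACTTC, whose reverse complement GAAGTG covers the end of the PU.1 site, was in 52.8% against 43.1% (1.48, 1.42 to 1.54). TATACA was in 6.16% against 4.23%, AAGGTA in 5.46% against 3.79% and ATTAAA in 10.6% against 7.46%. Of the 5 with the lowest odds ratios, GAGTCA was in 9.29% against 23.7% (0.33, 0.311 to 0.349) and GACTCA in 8.47% against 21.5% (0.338, 0.319 to 0.359), and both are parts of the TRE. GATGAC was in 5.84% against 13.4%, AGTCAT in 8.54% against 17.9% and CGTCAC, which shares letters with the CRE, in 2.45% against 5.32%.

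AP-1-free peaks lay in repeats more often. More than 50% of the central 200 bp was repeat-masked in 1981 AP-1-free peaks (9.90%) and 860 others (3.99%), an odds ratio of 2.65 (2.44 to 2.87, Fisher's exact test, adjusted p = 2.41e-127) and 2.52 within bins. The GC content was close, with medians of 48.0% and 49.0%.

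The distance from AP-1 and the number of AP-1 lists order the same measures, as a description. From AP-1-free peaks over 10000 bp away to those within 100 bp, the PU.1 core share went from 49.2% to 39.2% and the share of promoters from 15.4% to 29.4%, with 12.2% at gaps between 1000 and 10000 bp. PPARg stayed between 14.6% and 16.3%, and CEBPa in Veh between 2.93% and 3.69%. Other lists did vary with the gap. CEBPa in KLA was at 1.53% of AP-1-free peaks over 10000 bp away and 4.14% of those within 100 bp. AP-1 in BALB/cJ was at 16.4% and 31.0%, and AP-1 in PPARgKO at 12.3% and 11.5%. Peaks in 1 AP-1 list had PPARg in 39.1% and CEBPa in 11.3%, and those in 7 to 12 lists in 79.9% and 46.8%. TREs were in 1.13% of AP-1-free peaks within 100 bp of AP-1, in 4.39% of peaks in 1 list, and in 30.2% of peaks in 7 to 12 lists. PU.1 in KLA was at 63.0% of AP-1-free peaks within 100 bp and at 77.4% of peaks in 1 list.

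**Figure D5:**
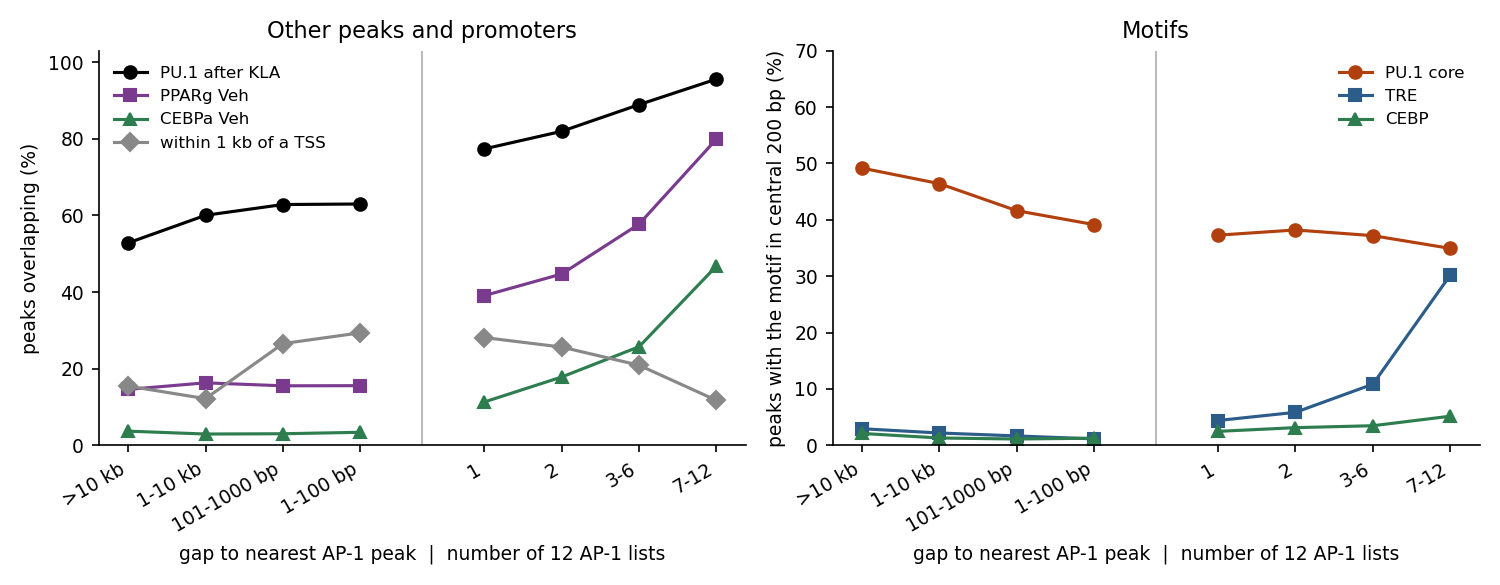
Shares of PU.1 Veh peaks by gap to the nearest AP-1 peak for AP-1-free peaks (left of the grey line) and by number of AP-1 lists for the others (right of it). PPARg stays between 14.6% and 16.3% at every gap and rises from 39.1% to 79.9% with the number of lists, and TREs are under 3% at every gap and reach 30.2%.

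Within the AP-1-free set, sequence also differed between peaks with and without a PU.1 peak in the KLA list. Absence from that list cannot be told apart from signal under the IDR limit. Peaks with a KLA partner had a GC box in 10.4%, against 6.25% of those without (odds ratio 1.74, 1.57 to 1.94, Fisher's exact test, adjusted p = 1.85e-25). A TRE was in 1.77% against 3.06% (0.572, 0.475 to 0.689, exact adjusted p = 6.25e-09). PPARg was at 20.1% against 9.19% (2.48, 2.27 to 2.70). The PU.1 core was in 45.4% against 47.4% (0.922, 0.871 to 0.975, exact adjusted p = 0.00579), and among peaks of like count the odds ratio was 0.676 (0.634 to 0.721). The longer PU.1 site was in 14.1% against 13.6%, which did not pass (exact adjusted p = 0.286), although within bins its odds ratio was 0.657 (0.597 to 0.724).

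Genes were assigned the peaks in their body and 5000 bp on each side. Of 21951 protein-coding genes, 8726 (39.8%) had an AP-1-free peak, and 5039 of these (57.7%) also had an AP-1-overlapping peak. Of all PU.1 peaks at genes, 48.2% were AP-1-free, and for 5297 of 11756 genes with PU.1 (45.1%) the highest PU.1 peak was AP-1-free. Gene lists are read against these shares by count only. Fgfr2, a growth factor receptor gene, had 31 AP-1-free and 26 other peaks. Fgfr2, Csf1r, Dusp1, Tnf, Cpt1a and the genes of TLR4 receptor and signalling proteins below were named after their values were seen.

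Macrophage identity genes had a lower AP-1-free share of their peaks than all genes: 41 of 148 peaks (27.7%) at 24 genes. Counted by gene, 18 of the 24 held at least 1 AP-1-free peak, against 8726 of 21951 protein-coding genes. All 24 had a PU.1 peak, against 11756 of the 21951. Gene lists were not compared within bins of PU.1 count. Among identity genes, the highest PU.1 peak was AP-1-free at 2 of 24. These were the scavenger receptor Marco and the chemokine receptor Ccr2, and neither had any AP-1-overlapping peak. The Marco peak (chr1:120481025-120481231) had a count of 300 and lay 29192 bp from AP-1, and the Ccr2 peak had a count of 371 and no PU.1 partner in KLA. In contrast, Csf1r, the receptor for the macrophage growth factor, had 1 AP-1-free peak among 9.

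TLR4 response genes, whose transcripts are known to rise on endotoxin, had 14 AP-1-free of 85 peaks (16.5%), the lowest share of the 12 lists. The highest PU.1 peak was AP-1-free at 4 of 29 genes with PU.1: Il6, Il12b, Egr2 and Cd40. The Il6 peak, 44 bp inside the TSS of this cytokine gene (chr5:30013105-30013319), had a count of 244 and lay 6 bp from an AP-1 peak. The Il12b peak had a count of 612 and lay 65 bp from one. Egr2 and Cd40 lay 749 and 228 bp away. Egr2 overlapped ATF3, Fos and JunD of BALB/cJ in KLA, and Cd40 overlapped JunD of BALB/cJ in KLA. The Il6 and Il12b peaks overlapped no AP-1 list of the other mice. Dusp1, a phosphatase gene of the early response, had 11 AP-1-overlapping and no AP-1-free peaks, and Tnf had 3 and none.

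At genes of TLR4 receptor and signalling proteins, 28 of 90 peaks (31.1%) were AP-1-free, and the highest peak was AP-1-free at 7 of 24 genes. These were Irak3, Map3k7, Tab1, Ikbkg, Chuk, Irf3 and Tirap, with counts from 171 to 497, whereas the highest peaks of Tlr4 (count 1230) and Nfkb1 (count 1002) overlapped AP-1. Macrophage transcription factor genes had 84 AP-1-free of 200 peaks (42.0%), closer to all genes. The highest peak was AP-1-free at Cebpa, Irf1, Nr1h3, Pparg, Klf4 and Bach1. Some of these lie nearest the start of another gene. The Nr1h3 peak, in the flank of the gene of the oxysterol receptor LXRa (chr2:91183917-91184120), lay 200 bp from a TSS of Madd and was the strongest of these with a count of 857, KLA percentile 94.4 and 3398 bp to AP-1. The Pparg peak (chr6:115469871-115470076), nearest a TSS of Gm44079, had a count of 414 but KLA percentile 12.7. It overlapped PPARg itself and lay 277 bp from AP-1. The Klf4 peak was weakest, with a count of 156. In the other mice, the Nr1h3 and Pparg peaks overlapped JunD of BALB/cJ in Veh, and the Bach1 peak overlapped ATF3 of PPARgKO. The Cebpa, Irf1 and Klf4 peaks overlapped no AP-1 list of these mice.

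Lysosome genes had 44 AP-1-free of 127 peaks (34.6%), genes of PPARg and lipid handling 26 of 73 (35.6%), NADPH oxidase and phagocyte killing genes 14 of 45 (31.1%), and ribosomal protein genes 16 of 49 (32.7%). Counted by gene, at least 1 AP-1-free peak was at 24 of 30, 13 of 20, 7 of 10 and 13 of 30 genes of these lists. It was at 18 of 23 macrophage transcription factor genes, 13 of 26 TLR4 receptor and signalling genes and 11 of 31 TLR4 response genes. Cpt1a, of fatty acid oxidation, had an AP-1-free peak of count 985 as its highest. Markers of other blood cells were counted as a check on the label of the cells. PU.1 peaks were found at 5 of 15 T cell markers, 6 of 13 mast cell and eosinophil markers, 10 of 15 neutrophil and granule markers and 11 of 15 B cell markers, against all 24 macrophage identity genes and 11756 of 21951 protein-coding genes. AP-1-free were 9 of 10 peaks at T cell markers, 6 of 11 at mast cell and eosinophil markers, 13 of 25 at neutrophil and granule markers and 12 of 23 at B cell markers. The highest PU.1 counts at such genes, named after they were seen, were 1221 at S100a8, a calcium-binding protein of neutrophils and monocytes, and 1003 at Blnk, an adaptor of B cell receptor signalling, and both peaks overlapped AP-1. A PU.1 peak at a gene is not a measure of its transcript, and the part of other cell types in these peaks was not tested.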

How the data were processed

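ChIP-seq peak lists of TGEMs were analysed: 30 lists for 34 samples, since the 4 input samples had no list among the files used here. Reads had been aligned by the authors to mm10 using Bowtie2, or for BALB/cJ to a custom genome whose positions were moved to mm10. HOMER gave peaks over the input, and only those with an IDR below 0.05 were deposited. Each deposited peak has a count, not normalized by the authors, and a score, the scaled IDR. How replicate counts were combined is not given in the sources used here. Counts summed to 13809143 over the PU.1 Veh list and to 3342808 over the PU.1 KLA list, so counts were ranked within lists and not compared between them. The 12 AP-1 lists held from 463 to 36745 peaks, and a short list can leave a site without a peak.

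Members and gene, marker and motif lists were chosen with earlier results of these data known. Overlap required 1 bp. Shares were compared with two-sided Fisher's exact tests, Benjamini-Hochberg adjusted within each of 4 families (7 overlap and position tests, 20 motifs, 2080 6-mers, and 25 tests within members or chosen after the data were seen). The 11 lists of other mice were adjusted among themselves. Odds ratios carry Woolf intervals, those within 10 bins by count are Mantel-Haenszel values, and intervals of shares are 95% Wilson intervals for counting error. A p under 1e-300 was written as 1e-300. Neighbouring peaks are not independent. Measures that the rule used (AP-1 overlap, gap) and PU.1 Veh counts were not tested. Sequences and gene models were GRCm38 and GENCODE M21 (build mm10), and 7 peaks on unplaced contigs had no sequence. Coordinates are printed as the lists give them, since their origin (0 or 1) is not given. Named peaks outside chromosome 18 were the 10 highest by count, the 5 highest at promoters, the 3 highest with CEBPa, with PPARg, without PU.1 in KLA and with AP-1 in most other lists, and the highest peaks of macrophage and TLR4 genes where AP-1-free. Named 6-mers were the 5 highest and 5 lowest odds ratios. Python 3.11.15, numpy 2.4.6, scipy 1.17.1, pandas 2.3.3 and matplotlib 3.10.9 were used, and overlap calls, odds ratios and motif search were tested on simulated data. Alternatives were other overlap rules, stronger peaks, distance from AP-1 and from TSSs, promoter width, motif windows and mismatches.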

Additional observations from a re-analysis of the deposited data

How the results depend on the processing

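The share of AP-1-free PU.1 peaks moved with the rule: 52.2% with peak centres within 100 bp, 51.9% with an overlap of 50% of both peaks, 37.6% in the strongest 50% of PU.1 peaks, 69.8% with the strongest 50% of each AP-1 list, 37.3% at 1000 bp or more from AP-1, and 35.0% when AP-1 in BALB/cJ and PPARgKO was also absent. Odds ratios for PU.1 after KLA (0.15 to 0.235), PPARg (0.0689 to 0.144), CEBPa in Veh (0.046 to 0.115) and KLA (0.02 to 0.0694), and AP-1 in BALB/cJ (0.0173 to 0.0329) and PPARgKO (0.0513 to 0.0726) kept direction and threshold under every alternative run. With the strongest 50% of each AP-1 list, the promoter share reversed to 1.34, and so did CCGGAAGT (1.51), GC box (1.12) and CCAAT (1.01). ISRE reversed to 1.00 in the strongest 50% of PU.1 peaks and to 1.14 with 1 mismatch, and CCAAT to 1.05 at 3 kb or more from a TSS. With 1 mismatch the ISRE passed as more frequent in AP-1-free peaks. It passed as less frequent within GC bins (0.862), with the strongest 50% of each AP-1 list (0.879) and without AP-1 in the other mice (0.885). GGAA passed as more frequent in the central 100 bp (1.65), with centres within 100 bp (1.37) and with 50% reciprocal overlap (1.35). In the strongest 50% of PU.1 peaks, 259 6-mers were more and 439 less frequent. Calls were lost for KLF with the strongest 50% of each AP-1 list, at 3 kb or more from a TSS, in the central 100 bp and within GC bins, for MEF2 in the strongest 50% of PU.1 peaks and the central 100 bp, and for CCGGAAGT in the strongest 50% of PU.1 peaks and at 3 kb or more from a TSS. With 1 mismatch allowed, CEBP and CEBP-ATF sites moved to odds ratios of 0.666 and 0.607. The cause of these changes was not tested. No paired analysis was possible because each condition has 1 list. No replicate could be left out for the same reason. Motif odds ratios within 5 bins of GC content were added after the data were seen. Weak AP-1 or PU.1 signal under the IDR limit cannot be told apart from absence.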
